A study of Mus musculus with 8 samples.

Results

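The MHC class II genes described here are 8 of the 27998 genes counted in single bone marrow progenitors of mice under different housing. The list was chosen by name, with the levels of these genes by class, pool set and housing already seen in earlier results: H2-Aa, H2-Ab1 and H2-Eb1, Cd74, H2-DMa and H2-DMb1, H2-Ob, and Ciita. All 8 had UMIs (unique molecular identifiers, counted once per captured transcript) and all 8 passed the filter on low counts in the sums over all cells. The cells were KL cells, which carry c-Kit (CD117) and lack CD3, CD4, CD8, CD45R, CD11b, TER119 and GR1, sorted from bone marrow of female B6 mice aged 3 to 4 months with no engineered allele named in the labels. SPF mice stayed in a specific-pathogen-free facility, and CVT mice were moved from it to a conventional facility and co-housed there with conventionally bred mice for a month. Each group held 10 mice in 4 pools of 2 or 3 mice, so a value of a pool is not that of a mouse. Pools 1, 2, 7 and 8 were SPF and pools 3, 4, 5 and 6 were CVT. Pools 1 to 4 held the lower-numbered mice and pools 5 to 8 the higher-numbered ones, which gives 2 pool sets with 2 pools of each group in each. What else differed between the pool sets is not given in the sources used here.

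Class II molecules present peptides from endosomes to CD4 T cells. H2-Aa and H2-Ab1 encode the alpha and beta chains of I-A, and H2-Eb1 encodes the beta chain of I-E, whose alpha chain gene is defective in B6 mice. Cd74 encodes the invariant chain, which fills the groove of newly made chains and takes them to endosomes. H2-DMa and H2-DMb1 encode H2-M, which removes the last piece of the invariant chain and helps peptide to bind, and H2-Ob with H2-Oa encodes H2-O, which restrains H2-M. Ciita is the co-activator on which class II transcription depends, acting through factors bound at the X and Y boxes of the promoters. High levels are known in dendritic cells, B cells and macrophages, and low levels are known in stem cells of the marrow.

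Promoter sequence is shown for 4 members because these genes, which differed in where they were read, shared the same letters before their start. In RefSeq promoters (GRCm38.p6), 5 of the 8 members matched an entry, and Cd74, H2-Ab1 and Ciita did not. Windows from 105 to 36 bases before the RefSeq start are printed 5′ to 3′ on the gene's strand, and capitals mark TGATTGG, which holds the inverted CCAAT of a Y box, and, upstream of it, ATGATG or TGACGTCA.
H2-Aa, chr17:34287859-34287928, minus strand: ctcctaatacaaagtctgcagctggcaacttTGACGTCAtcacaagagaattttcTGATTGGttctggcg
H2-Eb1, chr17:34305762-34305831, plus strand: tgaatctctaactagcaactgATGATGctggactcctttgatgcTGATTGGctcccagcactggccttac
H2-DMb1, chr17:34153086-34153155, plus strand: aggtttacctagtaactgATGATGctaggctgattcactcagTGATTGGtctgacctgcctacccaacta
H2-Ob, chr17:34238800-34238869, plus strand: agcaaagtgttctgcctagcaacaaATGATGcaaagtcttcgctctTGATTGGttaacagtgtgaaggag

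TGATTGG began between 50 and 63 bases before the RefSeq start in these 4 genes. The annotations differ for H2-DMb1, whose window lies 14 to 83 bases after the start that GENCODE gives, while the other 3 windows lie before the GENCODE start too. On either strand it occurred in 2568 of 32851 promoters (7.82%), ATGATG in 3668 (11.2%) and TGACGTCA in 588 (1.79%). The letters were chosen after the members' promoters had been read, so the shares describe how common they are and test nothing. H2-DMa had 2 entries, neither with TGATTGG.

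In GENCODE M21 (GRCm38), 6 members lie on chromosome 17, from H2-DMa (34119541 to 34139101) and H2-DMb1 (34153072 to 34160230) through H2-Ob (34238903 to 34254414), H2-Ab1 (34257689 to 34269419) and H2-Aa (34282744 to 34287823) to H2-Eb1 (34305867 to 34316674). Ciita lies on chromosome 16 (10480059 to 10528418) and Cd74 on chromosome 18 (60803848 to 60812652). H2-DMb1 has a near-identical neighbour in H2-DMb2, and H2-DMa overlaps Brd2 and other annotated genes, so counts of these members may hold or lack reads of a neighbour.

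The table held 29891 cells, 12331 of SPF and 17560 of CVT mice. A pool held 1888 to 4845 cells and 19041749 to 59812346 UMIs, with a median of 7529.5 to 12771.5 UMIs per cell. Each cell was assigned to the pool given by the suffix of its name. Of 29365 barcodes, 522 occurred in more than 1 pool, and no pair of pools was a copy of another. Cells were clustered without class II genes into 32 clusters, of which 30 were named from marker lists as 13 classes, called "-like" here. Levels are in CPM, the UMIs of a gene per 1000000 UMIs of the cells summed, and since each transcript gave 1 tag at its 3′ end no scaling by length was made. The gene list, the classes and the pool sets were chosen with earlier results of these counts known, so levels by class and by pool set are described without a test.

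The class II chains and Cd74 were highest in 133 dendritic-like cells, and among stem and early progenitor classes they were highest in LTHSC-like cells (long-term hematopoietic stem cells). The level of Cd74 was 6210 ± 2341 CPM in dendritic-like cells (mean and SD, n = 8 pools), 1182 ± 701 in a cluster of 534 monocyte-like cells led by Fn1 and Ccr2, 932 ± 731 in 166 B-like cells and 93.1 ± 28.1 in 1409 LTHSC-like cells. H2-Aa followed with 2406 ± 1349, 309 ± 184, 159 ± 116 and 71.4 ± 12.8 CPM in the same order. All 8 pools had a higher level of both genes in dendritic-like cells than in the Fn1 cluster. The Fn1 cluster and the B-like class were not apart for Cd74 (3 of 8 pools in that order), and neither were B-like and LTHSC-like cells for H2-Aa (5 of 8). The 133 dendritic-like cells held 38.3% of all Cd74 UMIs, 37.9% of those of H2-Aa and 29.95% of those of H2-Eb1, and 12.7% of those of H2-Ab1.

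**Figure D1:**
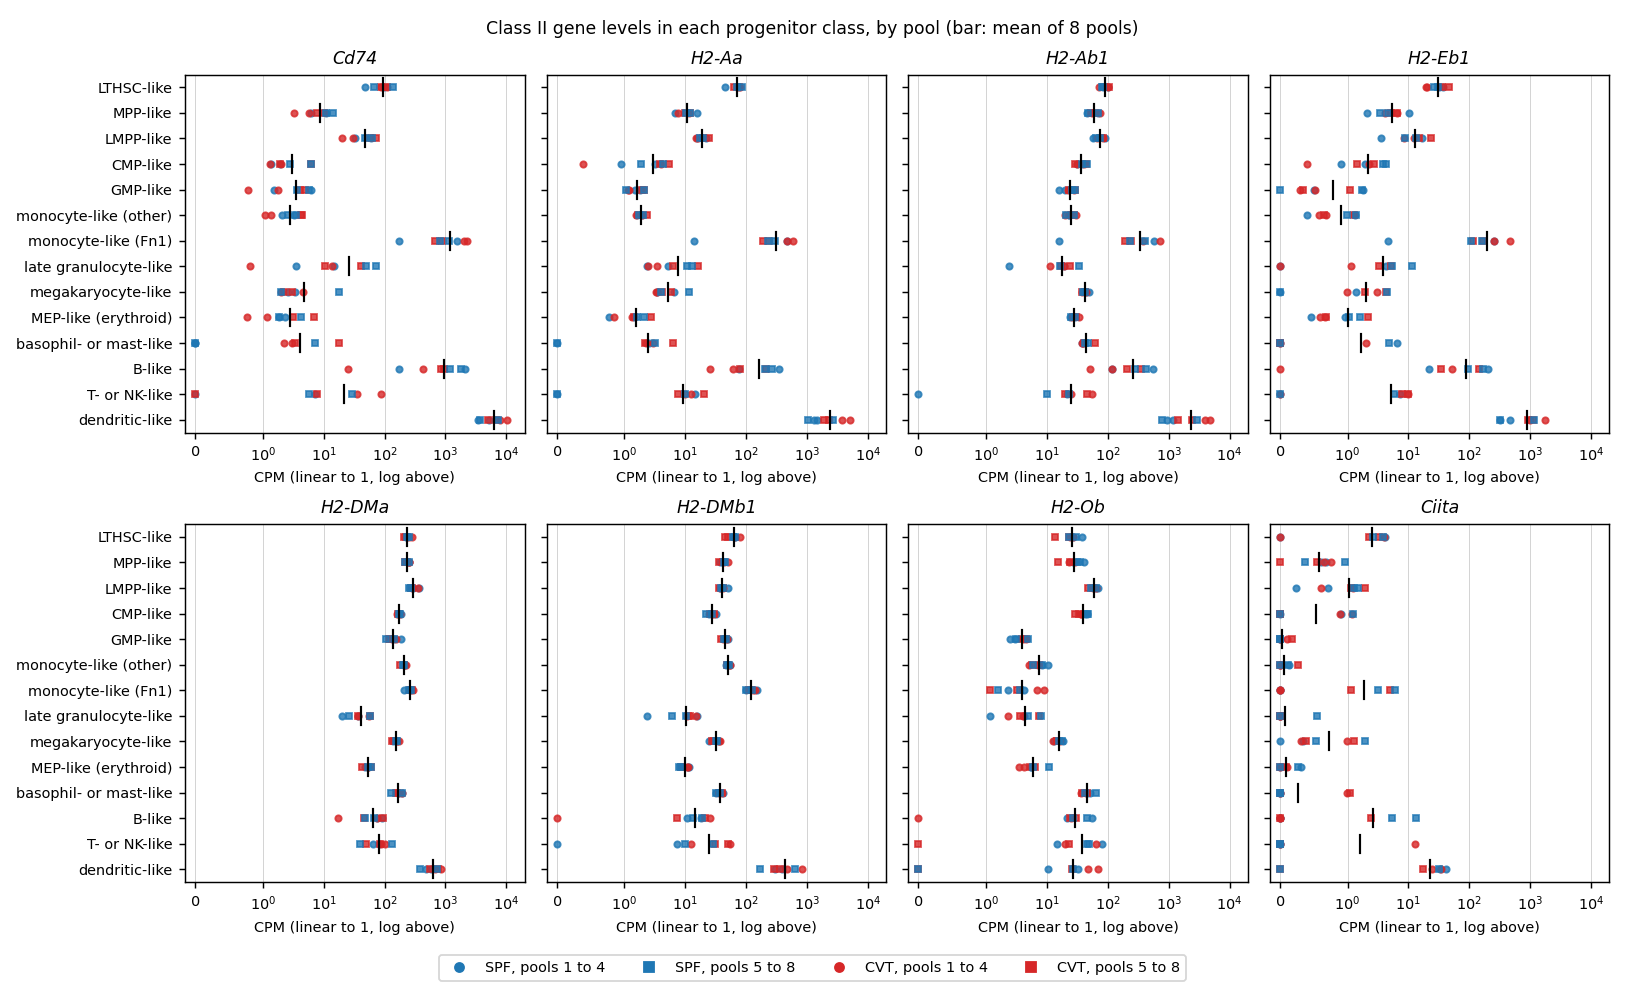
Level of each class II gene (x axis, CPM, linear to 1 and logarithmic above) in each class of cells (y axis), with 1 point per pool, colour for housing, shape for pool set and a black bar at the mean of 8 pools. Cd74, H2-Aa and H2-Eb1 span several orders of magnitude, with dendritic-like cells at the right and LTHSC-like cells above the other early progenitors, while H2-DMa lies between 40.4 and 624 CPM in its class means and H2-Ob is highest in LMPP-like cells.

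Among the early progenitors the chains were lower in LMPP-like (lymphoid multipotent progenitor) and MPP-like (multipotent progenitor) cells than in LTHSC-like cells. In LTHSC-like cells of pools 1 to 8, H2-Aa stood at 44.2, 77.3, 71.2, 79.7, 76.0, 64.2, 86.6 and 71.5 CPM. Pool 1 was the lowest and pool 7 the highest, and both are SPF. LMPP-like cells had 18.8 ± 3.28 CPM and MPP-like cells 10.7 ± 2.74, so that every LTHSC-like value lay above every value of either class. The ratio of means between LTHSC-like and MPP-like cells was 6.68 for H2-Aa, 5.80 for H2-Eb1 and 10.8 for Cd74, with ranges that did not meet for any of these genes. H2-Ab1 was higher in LTHSC-like cells in 8 of 8 pools too, but its ranges met. MEP-like cells (megakaryocyte-erythrocyte progenitors, here 5880 cells with erythroid markers) had 1.53 ± 0.635 CPM of H2-Aa and 2.79 ± 1.99 of Cd74.

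Cd74 in LTHSC-like cells of pools 1 to 8 stood at 47.6, 98.5, 108.7, 88.9, 86.7, 109.0, 65.9 and 139.1 CPM. The lowest and the highest were SPF pools again. LMPP-like cells had 47.8 ± 18.2 CPM of Cd74, below LTHSC-like cells in 8 of 8 pools with ranges that met, and MPP-like cells had 8.62 ± 3.53. The level was not even within these classes. One LMPP-like cluster of 2087 cells had 67.5 CPM of Cd74 and 25.7 of H2-Aa over all its cells, and the other, of 1059 cells, had 12.48 and 6.46. Of the MPP-like clusters, one of 1451 cells had 15.1 CPM of Cd74 and 17.9 of H2-Aa, and one of 1717 cells had 5.53 and 6.996.

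Markers of the cell types known for class II were counted in the LTHSC-like cells of each pool. The 17 B markers summed to between 41.5 and 61.5 CPM with 4 of them at 0, against 43.4 to 134 CPM in all KL cells, and the 10 monocyte markers to between 54.4 and 137 CPM, against 350 to 491. The 18 dendritic markers summed to between 212 and 246 CPM with 2 at 0, above the 103 to 185 CPM of all KL cells, and the 8 macrophage markers to between 2.28 and 17.2, against 3.63 to 9.94. The 302 LTHSC-like cells with a UMI of H2-Aa had 241 CPM of the dendritic markers, 42.6 of the B markers and 72.7 of the monocyte markers, and the 1107 without had 229, 53.5 and 106. The 14 LTHSC markers stood at 1568 CPM in the cells with H2-Aa and 1318 in those without.

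To compare shares of cells, each cell was thinned to 2759 UMIs, the smallest total of a cell, so that no cell was left out. H2-Aa was then found in 13.7% ± 1.62 of LTHSC-like cells (SD, n = 8 pools; 21.9% before thinning), 4.63% ± 1.09 of LMPP-like cells and 2.73% ± 0.982 of MPP-like cells. In MEP-like cells, taken as a class that should lack class II, the share was 0.338% ± 0.230 (1.94% before thinning). Median UMIs per cell were 5504 in LTHSC-like and 13487.5 in MEP-like cells. Cd74 was found in 14.8% ± 3.09 of LTHSC-like cells (22.2% before thinning) and 0.623% ± 0.392 of MEP-like cells (3.11% before thinning), and H2-Eb1 in 6.76% ± 2.32 and 0.270% ± 0.161.

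The chains and Cd74 were often found in the same cells. Of 193 LTHSC-like cells with a UMI of H2-Aa after thinning, 50.3% also had Cd74, 46.1% H2-Ab1 and 24.4% H2-Eb1, and of the 1216 without H2-Aa the shares were 10.1%, 16.5% and 4.36%. H2-DMa showed no such rise, with 40.9% and 47.5%. In the Fn1 cluster the contrast was steeper. There 45 of 534 cells had H2-Aa, and of these 91.1% had Cd74 and 84.4% had H2-Ab1, against 19.2% and 2.45% of the 489 other cells. Without thinning, 57 cells of the Fn1 cluster had H2-Aa. They held 8922 CPM of Cd74 against 91.1 in the other 477, and 192 CPM of Cd209a, a gene of dendritic cells made from monocytes, against 17.6. Monocyte markers summed to 5469 CPM in the cells with H2-Aa and 5303 in those without, and dendritic markers to 705 and 440. Single monocyte markers differed in direction, with Fn1 at 283 CPM with H2-Aa and 573 without, and Csf1r at 200 and 121. B markers rose too, from 29.7 CPM without H2-Aa to 134 with it. Macrophage markers rose from 55.5 to 95.999 CPM and LTHSC markers from 39.6 to 82.3. Which cell type the cells with H2-Aa belong to was not tested. These splits use a class II gene to sort the cells and are descriptions of 8 pools together.

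Few cells held much of the total. Cells with at least 10 UMIs of H2-Aa, H2-Ab1 and H2-Eb1 together numbered 168 (0.562% of all cells) and held 35.9% of the UMIs of these chains. They were 70 dendritic-like cells, 30 of the Fn1 cluster, 21 LTHSC-like, 19 B-like, 11 LMPP-like and others. Within the dendritic-like class the 80 cells with a UMI of Siglech, a receptor of plasmacytoid dendritic cells, had 4391 CPM of Cd74 and 1275 of H2-Aa. The 53 without Siglech had 8190 and 3470 CPM. The pools differed widely in this class, and the cause was not tested. Dendritic-like cells numbered 7 to 27 per pool, and a single cell held between 12.6% and 28.5% of a pool's Cd74 UMIs in that class.

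The chains of I-A were not balanced in most progenitors. Dendritic-like cells had 0.986 UMIs of H2-Ab1 per UMI of H2-Aa (0.649 to 1.13 over pools), and LTHSC-like cells 1.25 (0.940 to 1.88). The ratio was 4.01 in LMPP-like, 5.28 in MPP-like and 12.6 in CMP-like (common myeloid progenitor) cells and 19.3 in MEP-like cells. H2-Ab1 was thus read at 28.0 ± 3.27 CPM in MEP-like and 24.2 CPM in GMP-like (granulocyte-monocyte progenitor) cells, where H2-Aa was near 1.5 CPM, and 17.4% of all H2-Ab1 UMIs came from MEP-like cells. The part of RNA from other cells in these low levels was not tested.

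H2-DMa and H2-DMb1 were spread more evenly than the chains. H2-DMa stood at 624 ± 154 CPM in dendritic-like cells, 296 ± 41.0 in LMPP-like, 263 ± 25.6 in the Fn1 cluster, 237 ± 23.0 in LTHSC-like and 237 ± 14.5 in MPP-like cells. It was 52.8 ± 5.68 in MEP-like, 64.4 in B-like and 40.4 in late granulocyte-like cells. LTHSC-like and MPP-like cells did not stand apart in H2-DMa, with 4 of 8 pools in each order. H2-DMb1 reached 430 ± 215.3 CPM in dendritic-like cells, 122 ± 18.8 in the Fn1 cluster and 62.3 ± 10.3 in LTHSC-like cells, and lay between 40.5 and 50.4 in LMPP-like, MPP-like, GMP-like and the other monocyte-like cells. LTHSC-like cells exceeded MPP-like cells 1.48 times in H2-DMb1, in 8 of 8 pools with ranges that met. Per UMI of H2-DMa there were 0.141 UMIs of H2-DMb1 in LMPP-like, 0.253 in LTHSC-like and 0.706 in dendritic-like cells, although these genes encode the chains of a single dimer.

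H2-Ob had another order. It was highest in LMPP-like cells at 59.8 ± 7.28 CPM, followed by basophil- or mast-like cells at 45.7 ± 8.64 and CMP-like cells at 39.6 ± 6.34. MPP-like cells had 28.1 ± 7.70 CPM, LTHSC-like cells 25.6 ± 6.79 and dendritic-like cells 26.8 ± 24.0, which rests on 21 UMIs. The LMPP-like values of all 8 pools lay above all MPP-like values, with a ratio of 2.13. GMP-like cells (3.84 CPM), the Fn1 cluster (3.97) and MEP-like cells (5.86) were low. Only 4.15% of the LTHSC-like cells with H2-Aa also had H2-Ob after thinning, against 7.15% of those without. H2-Oa, its partner, was not shifted to LMPP-like cells in the same way, since UMIs of H2-Ob per UMI of H2-Oa came to 2.27 in LMPP-like, 1.40 in MPP-like, 0.955 in LTHSC-like, 0.740 in CMP-like and 0.517 in MEP-like cells.

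Ciita was barely read, with 139 UMIs in 130 of 29891 cells. Dendritic-like cells gave 20 of these UMIs (22.8 ± 15.8 CPM), LTHSC-like cells 23 (2.51 ± 1.68), LMPP-like cells 27 (1.08 ± 0.530) and MEP-like cells 6 (0.100). In LTHSC-like cells 2 of 8 pools had no UMI of Ciita. In the Fn1 cluster 11 UMIs of Ciita came from 8 cells and 4 of 8 pools had none, where a pool held 19 to 125 cells of the cluster. Ciita passed the filter on low counts in no class, so no test of it was made within a class.

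Across the 32 clusters, log2(CPM + 1) of H2-Aa followed that of H2-Eb1 (Pearson r = 0.988), Cd74 (0.952), Ciita (0.917) and H2-Ab1 (0.871) more closely than that of H2-DMb1 (0.556), H2-DMa (0.431) and H2-Ob (0.356). Of 9772 genes with at least 1000 UMIs, those outside class II most like H2-Aa were Plekhm3 (0.868), Secisbp2l (0.835), Gngt2 (0.828), Sp3 (0.824) and Gltp (0.816), and those most like Cd74 were Gngt2 (0.874), Tfeb (0.842), Mob1a (0.802), Atp6v1d (0.797) and Secisbp2l (0.790). The clusters share their pools and differ in depth, and these values are descriptions. Ciita, with 139 UMIs in all, lay below the 1000 UMIs asked of the genes outside class II, so its r rests on few counts.

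In the sums over all KL cells, pools 5 to 8 had more Cd74, H2-Aa and H2-Eb1 than pools 1 to 4. Cd74 stood at 42.1, 28.1, 21.5 and 18.5 CPM in pools 1 to 4 and at 57.1, 44.1, 79.5 and 78.4 CPM in pools 5 to 8. Every pool of the second set lay above every pool of the first, which also held for H2-Aa (9.56 to 13.6 against 15.3 to 26.1 CPM) and H2-Eb1 (4.17 to 6.78 against 8.16 to 12.9). The log2 fold change with housing in the fit was 1.27 for Cd74 (SE 0.12), 1.15 for H2-Eb1 (SE 0.14) and 0.93 for H2-Aa (SE 0.10), and of all 13092 genes 2.25% had a log2 fold change of at least 1 and 7.97% had all pools of the second set above those of the first. H2-Ab1 (0.34), H2-Ob (0.13), H2-DMb1 (0.03) and H2-DMa (-0.00) differed little, and Ciita was at 0.75 (SE 0.24). H2-DMa lay between 137 and 166 CPM in all 8 pools.

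**Figure D2:**
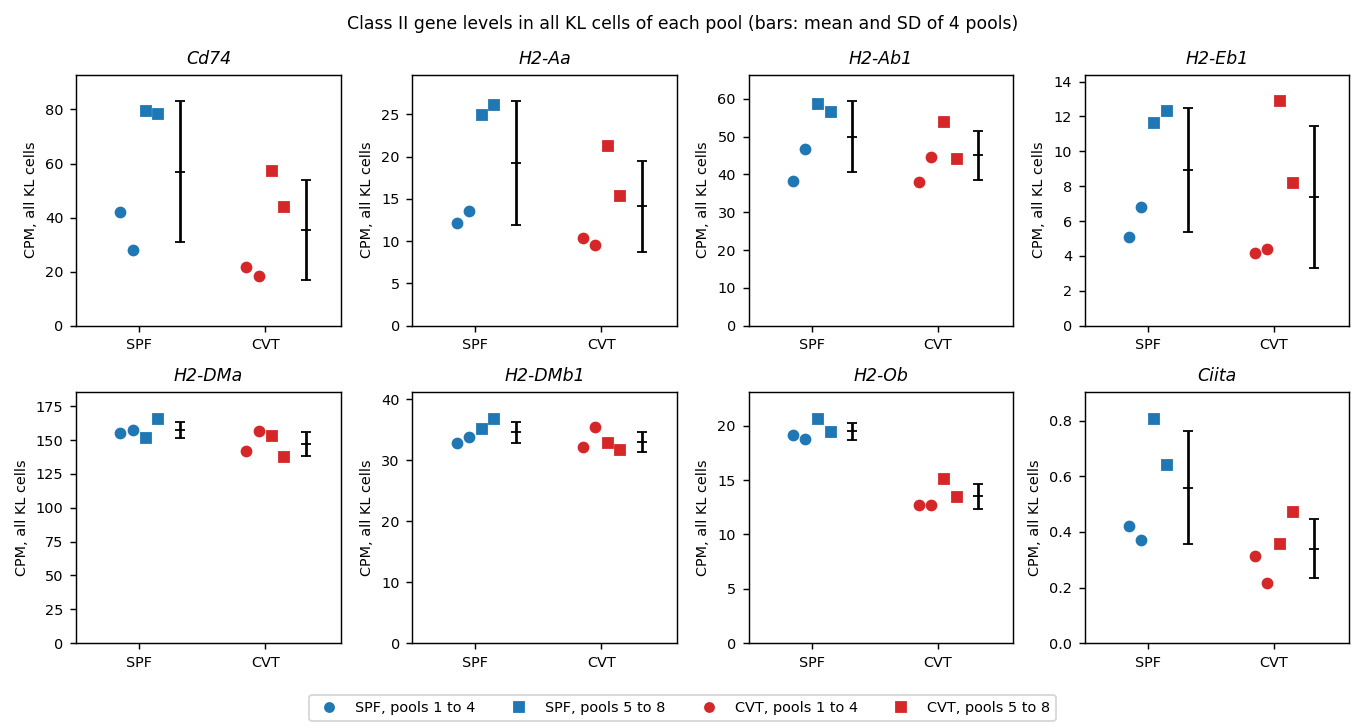
Level of each class II gene in all KL cells of a pool (y axis, CPM from 0), with 1 point per pool for SPF and CVT mice (x axis), shape for the pool set and bars for the mean and SD of 4 pools. Squares (pools 5 to 8) lie above circles (pools 1 to 4) for Cd74, H2-Aa and H2-Eb1, and for H2-Ob all 4 CVT pools (12.7 to 15.1 CPM) lie below all 4 SPF pools (18.8 to 20.6 CPM).

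Cells of several classes carried the difference between the pool sets. A sum over all KL cells alone does not separate more cells of a class from more RNA per cell. The part of each class in the sum was therefore set beside its share of cells. Of the mean Cd74 level, dendritic-like cells gave 13.7 CPM in pools 1 to 4 and 20.4 in pools 5 to 8, the Fn1 cluster 5.45 and 19.6, B-like cells 1.78 and 8.85, LTHSC-like cells 1.47 and 3.67, LMPP-like cells 2.89 and 5.06, and all other cells 2.32 and 7.22. The share of cells moved the same way for B-like, Fn1, LTHSC-like and dendritic-like cells. The share of LMPP-like cells was nearly unchanged, and that of all other cells together was lower in pools 5 to 8, although their part of Cd74 was higher. B-like cells made up 0.239% of pools 1 to 4 and 0.928% of pools 5 to 8, the Fn1 cluster 1.32% and 2.82%, LTHSC-like cells 3.49% and 6.19%, and dendritic-like cells 0.390% and 0.588%. Of 17 B markers, all 17 were higher in pools 5 to 8 (sum 55.0 and 114 CPM), as were 15 of 18 dendritic markers (129 and 159 CPM) and 13 of 13 late granulocyte markers (11983 and 29511 CPM).

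With B-like, dendritic-like and Fn1 cells left out, Cd74 still differed by 1.36 on the log2 scale between the pool sets, H2-Aa by 0.84, H2-Eb1 by 0.83 and H2-Ab1 by 0.14, where 1.79% of genes had a log2 fold change of at least 1. Within classes Cd74 was higher in pools 5 to 8 in 7 of 7 classes tested, from 0.32 in LTHSC-like and 0.71 in MPP-like to 1.72 in MEP-like and 2.41 in late granulocyte-like cells. H2-Aa was higher in 6 of 6, from 0.04 in MPP-like and 0.11 in LTHSC-like to 1.599 in monocyte-like cells. MEP-like cells, where Cd74 stood at 1.53 CPM in pools 1 to 4 and 4.05 in pools 5 to 8, are the class taken to show RNA from other cells, and the part of such RNA in these differences was not tested. In a calculation added after these values were seen, each class was held at its mean share of UMIs over the pools. The means of pools 1 to 4 and 5 to 8 were then 52.7 and 49.2 CPM for Cd74 (log2 ratio -0.10, against 1.23 as measured) and 20.5 and 17.4 for H2-Aa (-0.24 against 0.94). These sums lean on the dendritic-like level, which was highest in pools 3 and 4 at 7981.5 and 10341.8 CPM of Cd74 and came from 10 and 7 cells there.

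**Figure D3:**
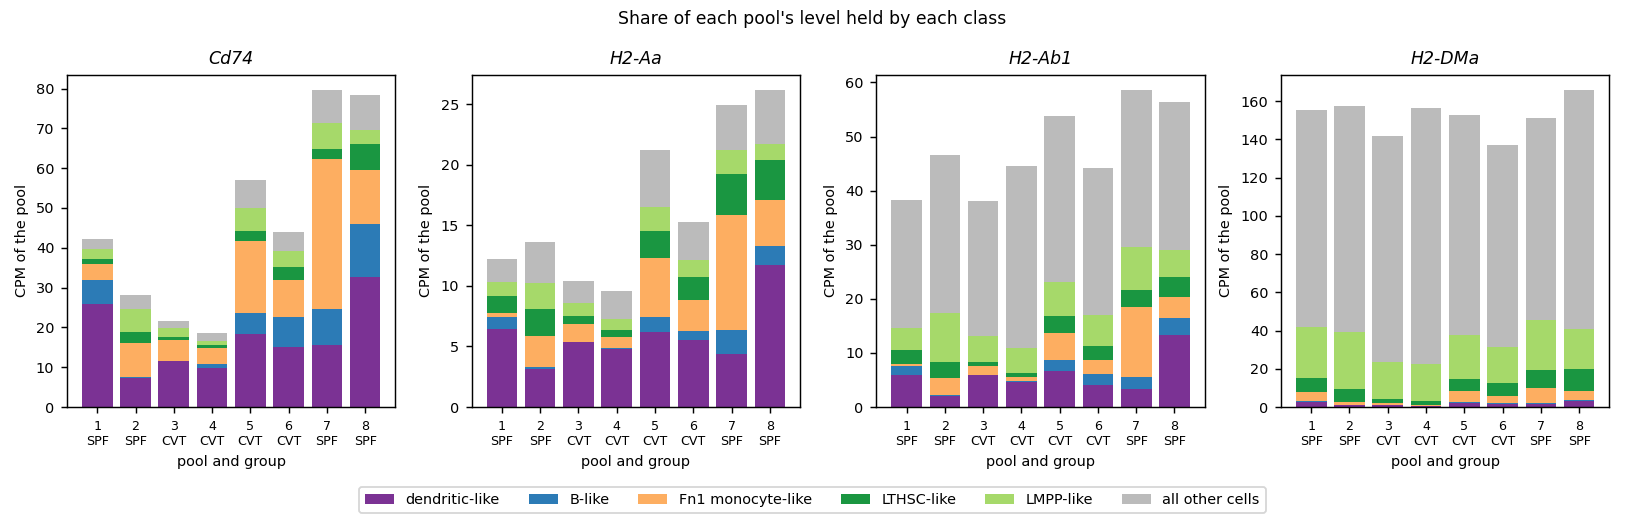
Parts of the level of Cd74, H2-Aa, H2-Ab1 and H2-DMa in a pool (y axis, CPM of the pool, from 0) that came from each class (colours), for pools 1 to 8 with their group (x axis). The dendritic-like, Fn1 and B-like parts of Cd74 and H2-Aa are small in count of cells and large in level, while H2-DMa comes mostly from the other progenitors.

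The comparison of CVT and SPF mice asked whether a month of conventional co-housing changed class II genes in progenitors. It was tested over all genes. The members had been listed with their levels by housing already seen, so their p-values here and below are not an independent test of them. With all KL cells of a pool summed, none of the 8 members passed an adjusted p of 0.05 in edgeR's quasi-likelihood test over 13092 genes, where 0 genes were called in either direction (percent called 0) and 921 (7.03%) had an unadjusted p under 0.05. The median log2 fold change (CVT against SPF) of the members was -0.34 and that of all genes -0.01. Cd74 was at -0.66 (SE 0.42, edgeR adjusted p = 0.766) and H2-Aa at -0.41 (SE 0.31, adjusted p = 0.799). For both, the SPF and CVT pools overlapped and the spread between pool sets was wider than the difference between groups. H2-Ab1 (-0.10), H2-Eb1 (-0.26), H2-DMa (-0.05) and H2-DMb1 (-0.02) had adjusted p of 0.889 to 0.966, and Ciita was at -0.67 (SE 0.33, adjusted p = 0.705). These values moved with single pools. With each pool left out in turn Cd74 ranged from -0.98 (without CVT pool 5) to -0.44 (without SPF pool 7), H2-Aa from -0.67 (without CVT pool 5) to -0.21 (without SPF pool 8), H2-Eb1 from -0.65 to -0.04 (without the same 2 pools) and H2-Ab1 from -0.21 (without SPF pool 1) to -0.007 (without SPF pool 7). No member passed the test of whether its housing difference changed between the pool sets (interaction in edgeR, smallest adjusted p = 0.555 for H2-DMb1), and of all genes 0 were called and 1188 (9.07%) had an unadjusted p under 0.05.

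H2-Ob was the member whose groups stood apart. It was at 19.1, 18.8, 20.6 and 19.4 CPM in SPF pools 1, 2, 7 and 8 and at 12.7, 12.8, 15.1 and 13.5 CPM in CVT pools 3, 4, 5 and 6. All 4 CVT pools lay below all 4 SPF pools, as did 5.26% of all genes. The log2 fold change was -0.48 (SE 0.07). Its p was the smallest of those of the 13092 genes tested, and after adjustment over all of them it did not pass (edgeR adjusted p = 0.507). It passed when the pool sets entered as a block (edgeR adjusted p = 0.0260, 1 gene higher and 3 lower, 0.00764% and 0.0229% of those tested) and by DESeq2 (adjusted p = 0.000401, 5 genes higher and 10 lower, 0.0443% and 0.0887%).

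The classes that make up the sum also differed in size. GMP-like cells, which had the lowest H2-Ob of the progenitor classes, made up 6.61% of SPF and 11.01% of CVT cells, and LTHSC-like cells 6.20% and 3.49%. With each class held at its mean share of UMIs, the mean of H2-Ob was 18.3 CPM in SPF and 14.8 in CVT mice (log2 ratio -0.31, against -0.53 as measured). All 4 CVT pools still lay below all 4 SPF pools, and the share of all genes that did so in this calculation was not determined. The same calculation turned the direction of Cd74, to 45.7 and 56.2 CPM (0.30, against -0.69), and of H2-Aa, to 16.0 and 21.9 CPM (0.45, against -0.44). For these 2 genes the sums again lean on the dendritic-like level, which was highest in CVT pools 3 and 4 and came from 10 and 7 cells there. Within classes H2-Ob was lower in CVT mice in 8 of the 9 classes tested and higher in GMP-like cells (0.31, SE 0.24), where the direction turned (-0.38) with 2000 variable genes in the clustering. It passed in none of them, and in these classes at most 2 genes were called in a direction (0.0116% of genes higher in CMP-like, 0.0128% higher in LTHSC-like, 0.0291% higher in basophil- or mast-like and 0.0103% lower in megakaryocyte-like cells, and 0 in the others). In MPP-like cells the log2 fold change was -0.47 (SE 0.16, edgeR adjusted p = 0.642), in LTHSC-like cells -0.46 (SE 0.22, adjusted p = 0.940) and in CMP-like cells -0.33 (SE 0.12, adjusted p = 0.975). The CMP-like cells were the class in which the groups did not overlap, with 42.0 to 46.9 CPM in SPF and 29.5 to 36.7 CPM in CVT pools, as did 2.82% of 8621 genes. LMPP-like cells, where H2-Ob was highest, had 63.2 ± 7.01 CPM in SPF and 56.5 ± 6.68 in CVT mice (log2 fold change -0.12, SE 0.10, edgeR adjusted p = 0.967).

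**Figure D4:**
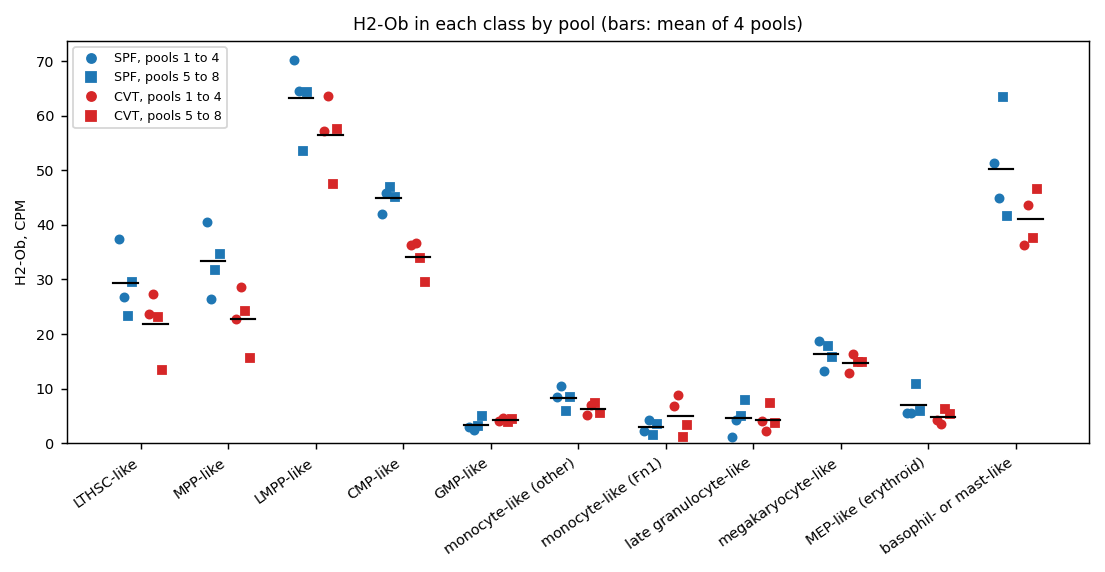
Level of H2-Ob (y axis, CPM from 0) by class of cells (x axis), with 1 point per pool, colour for housing, shape for pool set and bars at the mean of 4 pools. CVT means lie below SPF means in LTHSC-like, MPP-like, LMPP-like and CMP-like cells, and the pools overlap except in CMP-like cells.

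The other members within classes gave no call either with the filter on low counts. Without it Cd74 was called lower in CVT mice in late granulocyte-like and megakaryocyte-like cells, where 0.125% and 0.0389% of genes were called lower. The pools of both groups overlapped in both classes. Late granulocyte-like cells had 3.55 to 70.9 CPM in SPF and 0.81 to 40.6 in CVT pools. Megakaryocyte-like cells had 1.97 to 17.9 CPM in SPF and 1.97 to 4.61 in CVT pools. In LTHSC-like cells Cd74 and H2-Aa both had a log2 fold change of 0.05 (SE 0.18 and 0.15, edgeR adjusted p = 1 for both), which turned to -0.30 and -0.16 when clustering at resolution 1 redrew the class. Cd74 was lower in CVT mice in 6 of 7 classes tested, with -0.67 in MPP-like cells (SE 0.26, edgeR adjusted p = 0.685). Means of Cd74 and the chains were higher in CVT mice in dendritic-like cells and the Fn1 cluster and lower in B-like cells. In dendritic-like cells, too few for the fit, Cd74 stood at 4900 ± 1803 CPM in SPF and 7520 ± 2228 in CVT mice (SD, n = 4 pools), H2-Aa at 1604 ± 712 and 3209 ± 1421, H2-Ab1 at 1477 ± 1015 and 3156 ± 1510 and H2-Eb1 at 565 ± 396 and 1204 ± 393. In the Fn1 cluster Cd74 was at 917 ± 575 and 1447 ± 792 CPM. B-like cells went the other way, with 1305 CPM of Cd74 in SPF and 559 in CVT mice and 224 and 94.4 of H2-Aa. The pools of both groups overlapped for each of these genes, and the differences were not tested. H2-Aa had its lowest value in megakaryocyte-like cells (-0.84, SE 0.33, edgeR adjusted p = 1), where a pool held 3.29 to 11.3 CPM. H2-DMa lay between -0.05 and 0.25 in 10 classes and H2-Ab1 between -0.33 and 0.21.

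B-like and dendritic-like cells were compared by their share of cells. They held 11.2% and 38.3% of all Cd74 UMIs and 4.37% and 37.9% of those of H2-Aa. The Fn1 cluster, with 25.2% and 17.8% of these UMIs, was not in this test. It made up 2.70% of SPF and 1.44% of CVT cells (means of 4 pools). B-like cells made up 0.675% ± 0.418 of SPF and 0.491% ± 0.416 of CVT cells (SD, n = 4 pools, exact permutation test, two-sided p = 0.543, adjusted p = 0.543). Dendritic-like cells made up 0.615% ± 0.212 and 0.363% ± 0.206 (exact p = 0.143, adjusted p = 0.286). The smallest p that 4 pools against 4 allow is 0.0286. The difference was smaller than the SD between pools for B-like cells and larger than it for dendritic-like cells.

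Of the other genes of the pathway, taken from lists drawn up with earlier results known, none passed in either direction between CVT and SPF mice. Of the class II genes outside the 8, 2 were tested, and H2-Oa had the smallest p (log2 fold change -0.14, SE 0.07, edgeR adjusted p = 0.700). Of 7 X and Y box factors, all tested, 3 were higher in CVT mice, with Rfxank, a subunit of the X box complex, at -0.18 (SE 0.09, adjusted p = 0.700). Of 8 endosomal proteases and the reductase Ifi30, 2 were higher, and Ctss, the protease that trims the invariant chain, was at -0.35 (SE 0.23, edgeR adjusted p = 0.766). Of 7 genes of surface turnover and Cd74 partners 4 were tested, and March1, a ligase that takes class II from the surface, was at -0.92 (SE 0.57, edgeR adjusted p = 0.764). Of 8 genes between interferon gamma and Ciita, 3 were higher, and the kinase Jak1 was at -0.17 (SE 0.06, edgeR adjusted p = 0.676). Of 3 costimulatory genes 2 were tested, with Cd40 at -0.76 (SE 0.67, edgeR adjusted p = 0.831). Between the pool sets, March1 (1.18) and Cd40 (1.52) passed a log2 fold change of 1, as Cd74 and H2-Eb1 did. With a pool left out, the housing values ranged from -0.49 to -0.13 for Ctss, from -1.23 to -0.55 for March1 and from -1.12 to -0.13 for Cd40. Between the pool sets the X and Y box factors lay between -0.23 (Rfxap) and 0.30 (Rfx5).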

How the data were processed

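Single-cell libraries (10x Genomics 3′ kit, version 2) of KL cells from 4 SPF and 4 CVT pools were used. Per the labels, the submitters' processing notes name Cell Ranger and the build mm9, with no versions. The authors deposited UMI counts per gene and cell, whole numbers without normalization, in 1 table, and the labels' pool numbers were matched to the number ending each cell's name. Sequence and positions came from RefSeq (GRCm38.p6) and GENCODE M21 (GRCm38), matched by symbol. The members and lists were chosen with earlier results of these data known.

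All 29891 cells (502 to 5497 genes and 2759 to 49732 UMIs each, up to 61.7% mitochondrial) were kept. Cells were scaled to a total of 10000, logs were taken, and 1000 variable genes without class II genes gave 30 principal components (scikit-learn 1.9.0), a graph of 30 neighbours and Leiden clusters at resolution 2 (leidenalg 0.10.2, igraph 0.11.9). A cluster was named from at least 3 markers of a class among its 100 most specific genes, unless markers of another class outnumbered them among its 10 leading genes. Clusters with many monocyte markers led by Fn1 are given apart from the other monocyte-like cells. Scrublet (scanpy 1.11.5) marked 92 cells (0.308%), too few to have worked, so doublets were not removed.

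Counts were summed per pool and, in classes with at least 20 cells in every pool, per pool and class. The sums were tested with edgeR 4.0.16 (filterByExpr, TMM, glmQLFit and glmQLFTest, Benjamini-Hochberg over all genes tested, threshold 0.05) in R 4.3.3, with limma 3.58.1 and, as an alternative, DESeq2 1.42.0. The pool was the replicate, and nothing says that pools were sorted on separate days. Python 3.11.15 with pandas 2.3.3, scipy 1.17.1, numpy 2.4.6 and matplotlib 3.10.9 did the rest. edgeR was tested on simulated data. Named were all members, in each pathway list the gene with the smallest p, and the 5 genes outside class II most like H2-Aa and Cd74. Alternatives were RLE normalization, no filter on low counts, DESeq2, the pool sets as a block, filters on cells, resolution 1, 2000 variable genes, class II genes kept in the clustering, doublets or cell groups left out, no thinning, and each pool left out in turn. Depth limits Ciita most.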

Additional observations from a re-analysis of the deposited data

How the results depend on the processing

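Over all KL cells no member was called in the comparison of CVT and SPF mice as reported, 1 (H2-Ob) was called when the pool sets entered as a block, 1 (H2-Ob) was called by DESeq2, and genes called overall rose from 0 to 4 and 15. No member was called with any 1 pool left out, under RLE normalization, without a filter on low counts, with cells filtered or with doublets left out. Within classes 2 calls appeared without the filter on low counts, Cd74 in late granulocyte-like cells (-1.15, edgeR adjusted p = 1.34e-06) and in megakaryocyte-like cells (-1.46, adjusted p = 0.000969), where 18 and 6 genes in all were called lower. In both classes the SPF and CVT pools overlapped. No paired analysis was possible because the pool numbers are not shared between the groups. Between the pool sets 2 members had a log2 fold change of at least 1, and 1 had it without the B-like, dendritic-like and Fn1 cells. With each pool left out in turn the number was 1 to 3, and it was 1 without CVT pool 5, where H2-Eb1 was at 0.97. Shares of cells with a UMI moved with depth: not thinned, H2-Aa was found in 21.9% of LTHSC-like and 1.94% of MEP-like cells and Cd74 in 22.2% and 3.11%.

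Some log2 fold changes of CVT against SPF changed sign, and the cause was not tested. Ctss (-0.35 as reported) and H2-Ob in GMP-like cells (0.31) were not near 0. Over all KL cells without those 3 groups of cells, H2-Ab1 was at 0.001, H2-DMb1 at 0.03 and Ctss at 0.11. At resolution 1 LTHSC-like cells had -0.30 for Cd74 and -0.16 for H2-Aa, and LMPP-like cells 0.002 for Cd74. With 2000 variable genes H2-Ob in GMP-like cells was at -0.38 and H2-Aa in MPP-like cells at 0.13, and with class II genes in the clustering they were at -0.23 and 0.08. H2-Aa in monocyte-like cells without the Fn1 cluster was at 0.001. With each pool left out, H2-DMb1 in all KL cells ranged from -0.064 to 0.021, H2-Ob in megakaryocyte-like cells from -0.17 to 0.011, and Cd74 from -0.087 to 0.44 in LTHSC-like and from -0.49 to 0.07 in LMPP-like cells. H2-Aa then ranged from -0.052 to 0.13 in LTHSC-like, from -0.14 to 0.15 in LMPP-like and from -0.22 to 0.069 in MPP-like cells, and H2-Ab1 from -0.00 to 0.23 in MPP-like cells. H2-Ob ranged from -0.57 to -0.20 in LTHSC-like, from 0.13 to 0.67 in GMP-like and from -0.185 to -0.046 in LMPP-like cells. H2-Ob over all KL cells kept its direction in every fit, from -0.53 to -0.44 with a pool left out. Of the values for single genes and for shares of B-like and dendritic-like cells, 608 counted as unchanged and 27 as changed in sign. Between CVT and SPF mice, unchanged meant the same direction and side of the threshold. Between the pool sets it meant a move smaller than the SD between pools, so changes of sign near 0 are among the 608. H2-DMa between the pool sets ranged from -0.037 to 0.046 with a pool left out. Depth limits Ciita, and 7 dendritic-like cells in a pool limit the level of that class.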

Other observations

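Late granulocyte-like cells held class II RNA unevenly. One of their clusters, with 318 cells, had 80.2 CPM of Cd74, 27.1 of H2-Aa and 117 of H2-DMa over all its cells, and the other 2, with 766 and 510 cells, had 22.5 and 8.09 CPM of Cd74 and 16.7 and 17.6 of H2-DMa. Over pools Cd74 in this class ranged from 0.810 CPM in the lowest to 70.9 in the highest, with a mean of 8.19 in pools 1 to 4 and 43.1 in pools 5 to 8. Of the 1594 cells of the class, 4 had at least 10 UMIs of H2-Aa, H2-Ab1 and H2-Eb1 together and 3 had at least 50. A few cells can thus set these levels.

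B-like cells carried the genes with and without H2-Aa. The 57 with a UMI of H2-Aa had 2577 CPM of Cd74 and 627 of H2-Ab1, and the 109 without had 400 and 137. H2-DMa stood at 95.5 and 41.6 CPM in these cells, and the B markers summed to 7862 and 8887 CPM.

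No pool was far from the others of its group by Dixon's criterion in the 20 groups of 4 pools examined. These groups did not cover every member in every class. In megakaryocyte-like cells, Cd74 of the SPF pools ran from 1.97 to 17.9 CPM around a mean of 6.46.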
